A study of Saccharomyces cerevisiae with 6 samples.

Results

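The yeast cell wall is built around a net of beta-1,3-glucan, and 10 genes that make, extend and cross-link that net or make its chitin were followed here among 5449 genes measured in Saccharomyces cerevisiae. They were taken by gene symbol, with 1 probe set for each gene. Beta-1,3-glucan is spun out through the plasma membrane by a synthase whose catalytic subunit in growing cells is Fks1. Gas enzymes, held at the cell surface by a lipid anchor, then cut the chains and join them to others, which lengthens and branches the net. Chitin is a minor polymer that 3 synthases lay down at different places and times of the cell cycle, and Crh1 fastens it to glucan.

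The H2A R78A arrays came from cells whose histone H2A has alanine in place of an arginine at the protein-DNA interface, and the wild-type arrays from cells with unaltered H2A. The series asks how that arginine affects gene expression. Each group had 3 one-colour Affymetrix arrays of total RNA from mid-log cultures in rich glucose medium, and the labels name the replicates but do not say that they were separate cultures. The strain background and the locus that carries the mutation are not given in the labels.

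Deposited signals are linear intensities scaled to a trimmed mean of 500 on every array, so each value is relative to the other transcripts of its array. The median signal was 414 to 432 on the H2A R78A arrays and 404 on each wild-type array, and the 10th percentile of genes was 121 to 135 against 90.2 to 102. The probe set of HTA1, an H2A gene, read 1736, 1836 and 1944 on the H2A R78A arrays and 1768, 1749 and 1867 on the wild-type arrays. Its log2 difference was 0.03 (limma adjusted p = 0.686), and it passed as higher under 3 of 17 other ways of processing, named at the end. For HTA2, the other H2A gene, the brighter probe set, of a type that can share sequence with related genes, read 1251, 1413 and 1332 on the H2A R78A arrays and 1523, 1448 and 1440 on the wild-type arrays (log2 -0.14, limma adjusted p = 0.0954). Its other probe set read at most 3.30 on any array, close to the array's tag controls (at most 1.94), and gives no measure of HTA2. A point mutation cannot be read from these probe sets. With 3 arrays a group, the number of arrays limits the precision, and p-values measure the spread between these arrays, which may be technical.

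Among the 10 genes, 3 passed as higher in H2A R78A cells in limma's moderated test (adjusted over all genes, threshold 0.05) and 0 as lower. They were GAS2, GAS5 and CHS1. Over all 5449 genes, 17.9% were higher and 9.18% lower, 27.1% called in all. The median log2 difference, always H2A R78A minus wild type, was 0.08 over the 10 genes and 0.02 over all genes. The arrays of the groups did not overlap for 3 of the 10 genes, GAS2, GAS3 and GAS5, all with the H2A R78A arrays above, and 25.7% of all genes had all 3 H2A R78A arrays above all 3 wild-type arrays (43.1% were apart in either direction). After quantile normalization, which gives all arrays the same distribution of signals, 2 of the 10 were higher and 0 lower, against 10.4% and 9.76% of all genes, and with the replicate number as a block 3 and 0, against 23.7% and 15.7%. No test of the 10 genes as a set was made.

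**Figure D1:**
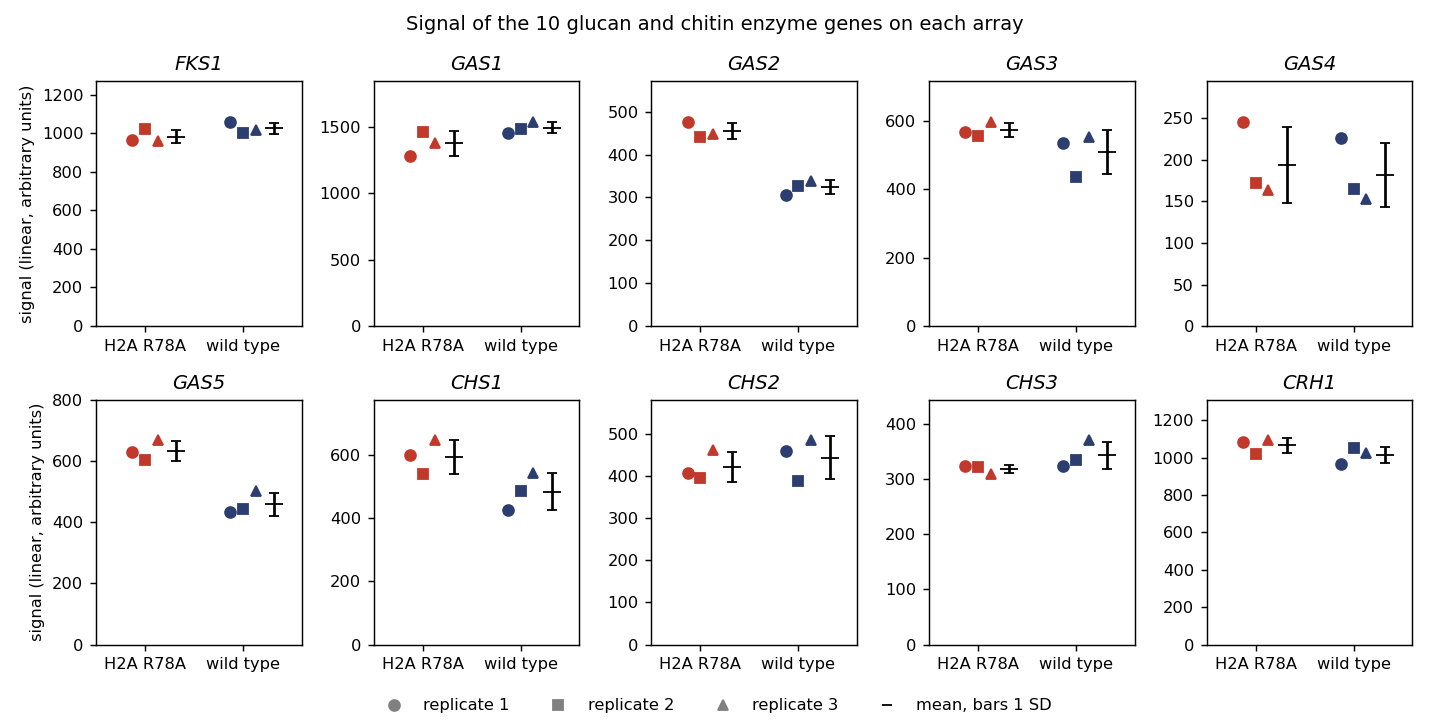
Signal of each of the 10 genes on each array, on a linear axis from 0 with its own range per gene, H2A R78A left and wild type right. Marker shapes give the replicate number, and bars give the mean and 1 SD of 3 arrays. The groups lie apart for GAS2 and GAS5, just apart for GAS3, and overlap for the other genes.

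FKS1 (YLR342W), the synthase subunit of growing cells and the target of echinocandin drugs, read 964, 1023 and 963 on the H2A R78A arrays and 1060, 1001 and 1017 on the wild-type arrays. The groups overlapped, with H2A R78A replicate 2 above wild-type replicates 2 and 3. The means were 983 ± 34.5 in H2A R78A and 1026 ± 30.4 in wild type (SD, n = 3 each), a log2 difference of -0.06 ± 0.06 (SE) with a limma adjusted p of 0.450. The 95% interval of the fold, 0.879 to 1.05, reached further below 1 than above it. Its sign turned under quantile normalization (0.02) and under cyclic loess, which evens out trends with signal between arrays (0.03), so no direction is given for FKS1.

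GAS1 (YMR307W) encodes the main Gas enzyme of growing cells, whose loss weakens the wall. It read 1282, 1465 and 1383 on the H2A R78A arrays and 1457, 1484 and 1539 on the wild-type arrays. A single H2A R78A array, replicate 2, reached into the wild-type range. The log2 difference was -0.12 ± 0.06 with a limma adjusted p of 0.166, and the fold interval was 0.839 to 1.01. As with FKS1, the sign was not stable, since quantile normalization gave 0.01 and cyclic loess 0.02.

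GAS5 (YOL030W), another Gas enzyme of growing cells, rose 1.38-fold. It read 630, 604 and 668 on the H2A R78A arrays and 433, 442 and 502 on the wild-type arrays. Every H2A R78A array lay above every wild-type array, with a wide gap between the groups. The means were 634 ± 32.4 and 459 ± 37.2 (SD, n = 3 each), the log2 difference was 0.47 ± 0.08 with a limma adjusted p of 0.00146, and the fold interval was 1.23 to 1.56. Between arrays of the same replicate number the log2 differences were 0.54, 0.45 and 0.41. The call held under all 17 alternatives run for it (other scalings, low-value and probe set rules, variance models, the block and each array left out), with log2 differences of 0.41 to 0.53. Neither the probe set rule nor the raising of low values could change the difference itself. GAS5 has 1 probe set, and its signals lay above the raised value.

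GAS3 (YMR215W), the remaining Gas gene that is used in growing cells, read 568, 555 and 597 on the H2A R78A arrays and 536, 436 and 554 on the wild-type arrays. The lowest H2A R78A array stood just above the highest wild-type array. The log2 difference of 0.18 ± 0.09 did not pass in limma (adjusted p = 0.168), with a fold interval of 0.985 to 1.30. Wild-type replicate 2 was low, and without it the difference was 0.07 (limma adjusted p = 0.479).

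GAS2 (YLR343W) and GAS4 (YOL132W) belong to the family's spore branch, known for building the glucan layer of the spore wall in meiotic cells. GAS2 rose 1.40-fold, with 476, 441 and 447 on the H2A R78A arrays and 306, 328 and 339 on the wild-type arrays. The gap between the groups was wide and no array crossed it. The means were 455 ± 18.8 and 324 ± 16.8 (SD, n = 3 each), the log2 difference was 0.49 ± 0.07 with a limma adjusted p of 9.81e-04, and the fold interval was 1.25 to 1.57. Same-numbered arrays differed by 0.64, 0.43 and 0.40. As with GAS5, the call held under all 17 alternatives run for it, with log2 differences of 0.42 to 0.52. Its rank by log2 difference was 580 of 5449 genes, against 611 for GAS5 and 1022 for CHS1, so larger increases were common on these arrays.

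GAS4, in contrast, read 246, 172 and 164 on the H2A R78A arrays and 226, 165 and 154 on the wild-type arrays. In both groups replicate 1 was high and the other replicates were low, so the array number separated the values more than the genotype did. The log2 difference was 0.09 ± 0.18 with a limma adjusted p of 0.731, and same-numbered arrays differed by 0.12, 0.06 and 0.09. The fold interval of 0.813 to 1.39 was the widest of the 10, wide enough to hold a change nearly as large as that of GAS2. GAS4 was also the only one of the 10 below the background level set here, the 25th percentile of mean log2 signals (7.86, a signal of 232). That level is a rank cut and not a measured detection limit. The sign of GAS4 turned under quantile normalization (-0.16) and cyclic loess (-0.11). It also turned without H2A R78A replicate 1 (-0.09), without wild-type replicate 3 (-0.02) and with array weights (-0.09).

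Because GAS2 is a sporulation gene, markers of meiotic and sporulating cells were read beside it. Of 9 markers, 7 were higher in H2A R78A cells and 1, the meiotic inducer gene IME1, was lower, against 17.9% higher and 9.18% lower over all genes and 37.4% higher among the dimmest 25% of genes, where 7 of the 9 lay. Their summed signal was 1605 to 1890 on the H2A R78A arrays against 1167 to 1300 on the wild-type arrays. After quantile normalization 4 of the 9 were higher and 1 lower, against 10.4% and 9.76% of all genes. None of the 9 was at 0, though only IME1 and SPO11 lay above the background level. The part of these markers in the GAS2 result was not tested. In bulk RNA, more cells of a type and more RNA per cell cannot be told apart.

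**Figure D2:**
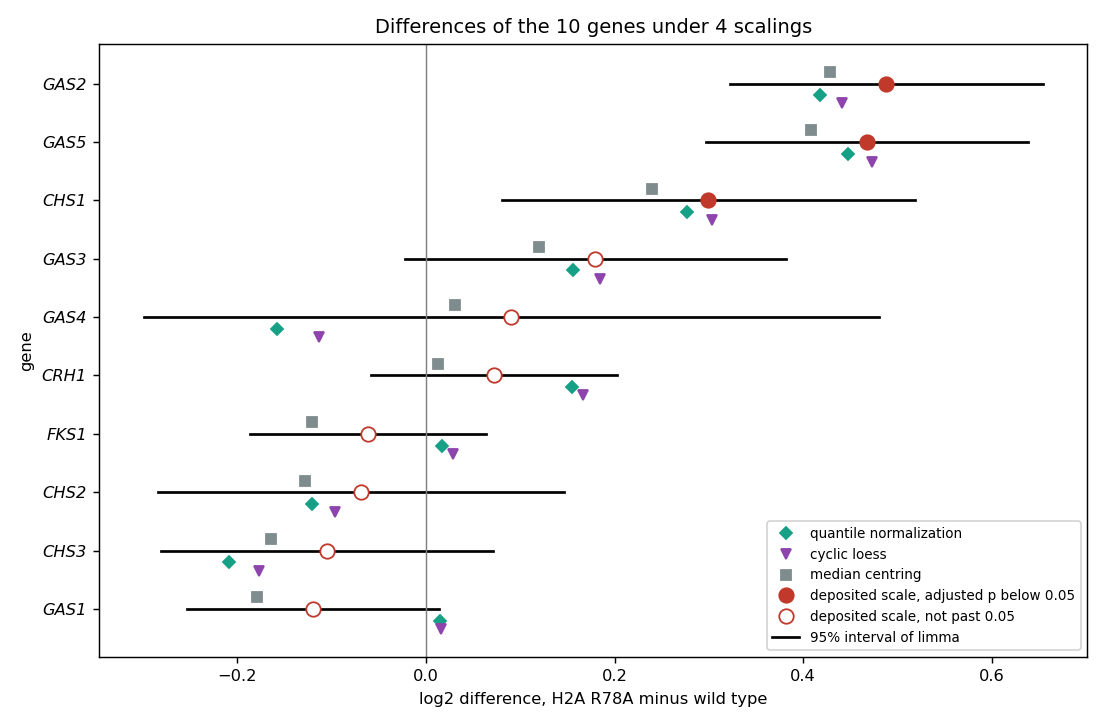
Log2 difference (H2A R78A minus wild type) of each of the 10 genes, with limma's 95% interval on the deposited scale and the values after 3 other scalings as smaller symbols. GAS2, GAS5 and CHS1 lie right of 0 under all 4 scalings, and FKS1, GAS1 and GAS4 change side.

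The chitin synthases did not move as a group. CHS1 (YNL192W) encodes chitin synthase I, known for repairing the wall as daughter cells separate. It read 597, 538 and 645 on the H2A R78A arrays and 424, 484 and 543 on the wild-type arrays. The ranges overlapped, since H2A R78A replicate 2 lay below wild-type replicate 3. The means were 594 ± 53.6 and 483 ± 59.4 (SD, n = 3 each), 1.23-fold higher, and the log2 difference of 0.30 ± 0.10 passed in limma with an adjusted p of 0.0461. The call sat at the threshold: it ended under 10 of 17 alternatives, among them quantile normalization (0.28, adjusted p = 0.0755) and cyclic loess (0.30, adjusted p = 0.0573). It also ended in limma without H2A R78A replicate 1 (adjusted p = 0.115) or 3 (0.171), and without wild-type replicate 1 (0.163) or 2 (0.0911), while the sign stayed positive under all 17. With the replicate number as a block the call held (adjusted p = 0.0109), also together with quantile normalization (0.0195), and same-numbered arrays differed by 0.50, 0.15 and 0.25.

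CHS2 (YBR038W), the synthase of the primary septum between mother and daughter, read 409, 396 and 463 on the H2A R78A arrays and 459, 388 and 486 on the wild-type arrays. The groups were interleaved, and in both of them replicate 3 was highest and replicate 2 lowest. The log2 difference was -0.07 ± 0.10 (limma adjusted p = 0.631), with a fold interval of 0.821 to 1.11.

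CHS3 (YBR023C) makes most of the chitin of the cell, in the ring at the bud neck and in the lateral wall. It read 324, 321 and 309 on the H2A R78A arrays and 324, 334 and 370 on the wild-type arrays. Replicate 1 had nearly the same value in both groups, and the other wild-type arrays were higher. The log2 difference was -0.11 ± 0.08 (limma adjusted p = 0.350) with a fold interval of 0.823 to 1.05. Its sign was negative under all 17 alternatives, and it passed under none of them.

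CRH1 (YGR189C), the transglycosylase that links chitin to glucan, read 1085, 1018 and 1092 on the H2A R78A arrays and 965, 1049 and 1026 on the wild-type arrays. H2A R78A replicate 2 lay within the wild-type range. The log2 difference was 0.07 ± 0.06 (limma adjusted p = 0.390) with a fold interval of 0.960 to 1.15. The value was larger after quantile normalization (0.16, adjusted p = 0.0963) and cyclic loess (0.17, adjusted p = 0.0688) and smaller after median centring (0.01), and it did not pass under any of these in limma.

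The array-to-array spread differed among the 10. GAS4 had coefficients of variation of 23.3% in H2A R78A and 21.4% in wild type. The other 9 genes lay between 2.48%, for CHS3 in H2A R78A cells, and 12.5%, for GAS3 in wild type.

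On these arrays the direction of change went with signal strength, so each gene is also read against genes of its own signal. The genes were divided into 4 equal bins by mean signal. In the bin of GAS2 and CHS3, the second from the dim end, 19.2% of genes were higher and the median log2 difference was 0.07. In the next bin, which holds GAS3, GAS5, CHS1 and CHS2, 11.5% were higher and the median was -0.01. In the brightest bin, which holds FKS1, GAS1 and CRH1, 3.60% of genes were higher, 21.4% were lower and the median was -0.11. The values of FKS1 (-0.06) and GAS1 (-0.12) lay close to that median and CRH1 (0.07) above it. In the dimmest bin, with GAS4, the median was 0.28 and 37.4% of genes were higher, and GAS4 itself (0.09) was below that median.

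**Figure D3:**
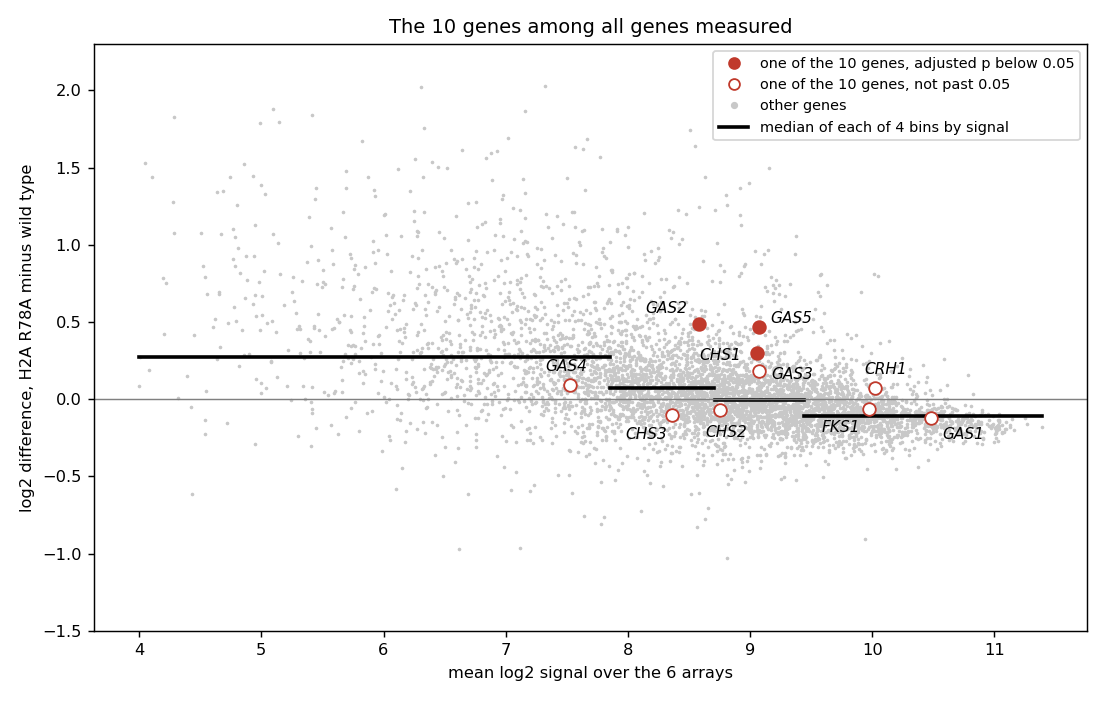
Log2 difference (H2A R78A minus wild type) against mean log2 signal over 6 arrays, with grey dots for other genes, circles for the 10 genes and black bars for the median of each of 4 bins of genes by signal. GAS2, GAS5 and CHS1 lie above the medians of their bins, and FKS1 and GAS1 lie near theirs. The 33 genes with a mean log2 signal of 4 or below are not drawn.

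Ratios between genes of a family within an array do not depend on the scaling factor of that array. For 19 pairs within the GAS, CHS, FKS and CRH families, chosen after the values had been seen, the ratios of the groups did not overlap in 11 (57.9%), against 44.9% of all pairs of genes. With 3 arrays against 3, an exact permutation test cannot give a two-sided p below 0.1, so none can pass 0.05, and the smallest value adjusted over the 19 pairs was 0.173. Pairs that share a gene are not independent.

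The log2 ratio of GAS5 to GAS1 was 0.59 higher in H2A R78A than in wild type, and 0.43 higher after quantile normalization. GAS2 over GAS1 was higher by 0.61, or by 0.40 after quantile normalization, and the groups did not overlap for either ratio. GAS2 over GAS5 differed by 0.02, with overlapping groups. The shift between GAS2 and GAS4, the pair of spore genes, was 0.40 with overlapping groups (exact two-sided permutation p = 0.3). The ratio of CHS1 to CHS3 was higher by 0.40 and that of CHS1 to CHS2 by 0.37, with no overlap, and that of CHS2 to CHS3 by 0.04, with overlap.

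**Figure D4:**
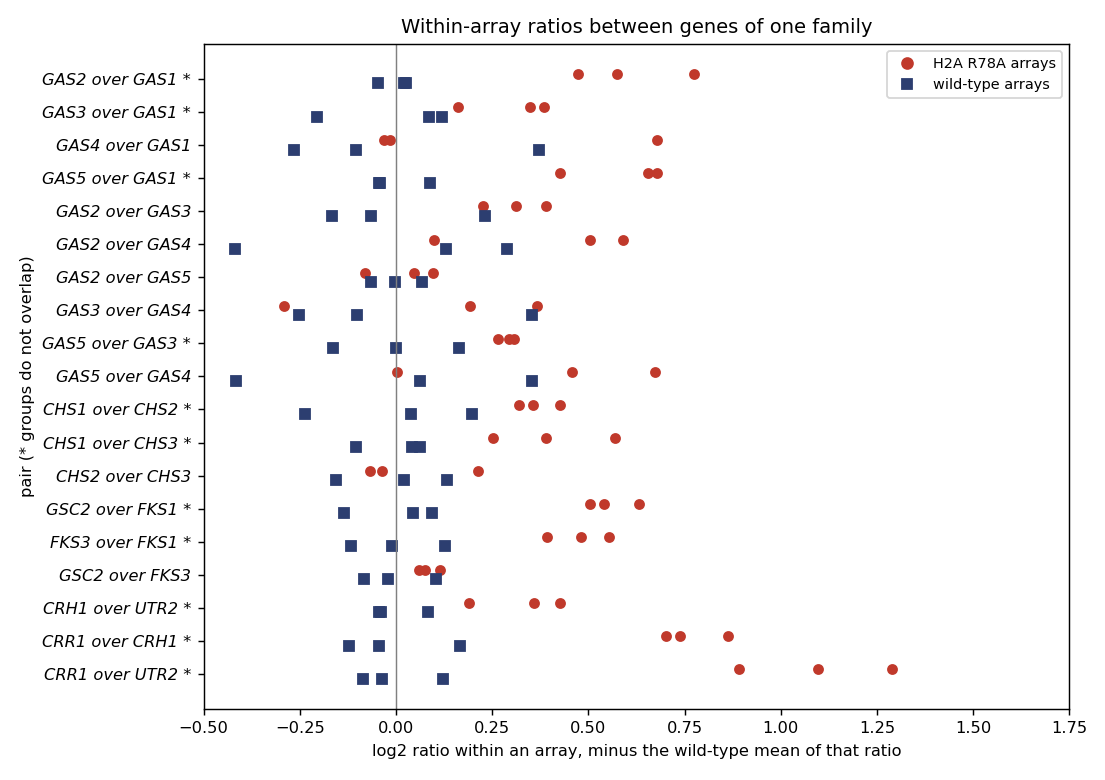
Log2 ratio of 2 genes of a family within each array, minus the wild-type mean of that ratio, with circles for H2A R78A and squares for wild-type arrays. An asterisk marks the 11 pairs whose groups do not overlap, among them GAS5 over GAS1, CHS1 over CHS3 and GSC2 over FKS1.

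Relatives outside the 10 also differed within their families. GSC2, also called FKS2, encodes the alternative subunit of glucan synthase used under stress and in poor carbon sources. It rose 1.41-fold (786 ± 63.1 in H2A R78A, 557 ± 55.7 in wild type, log2 0.50, limma adjusted p = 0.00213), and its ratio to FKS1 within arrays was higher by 0.56. The third subunit gene, FKS3, read 89.7 ± 7.98 and 67.4 ± 7.73 (log2 0.41, limma adjusted p = 0.0417), a signal below the background level whose difference was -0.00069 after quantile normalization. In the Crh family, UTR2 fell to 1207 ± 60.1 in H2A R78A, against 1438 ± 81.9 in wild type (log2 -0.25, limma adjusted p = 0.0135), a call that ended after quantile normalization (-0.13, limma adjusted p = 0.0702) but held when the replicate block was added to it (0.0323). The spore gene CRR1 was higher (log2 0.84, limma adjusted p = 7.58e-04) at a dim signal, so CRH1 lay between them, with a ratio to UTR2 higher by 0.32 and a ratio of CRR1 to CRH1 higher by 0.77, or by 0.28 after quantile normalization.

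Some of these genes are chromosomal neighbours in the gene order of the annotation table. FKS1 and GAS2 are separated only by the small gene YLR342W-A, and on the other side of FKS1 stands SPO77, a sporulation gene. Along this stretch SPO77 was higher (log2 0.88, limma adjusted p = 3.04e-04), FKS1 (-0.06) and YLR342W-A (-0.05) did not pass, and GAS2 was higher (0.49). Next to GAS2 the ribosomal protein gene RPL26A was lower (log2 -0.20, limma adjusted p = 0.0149). GAS1 and FKS3 are also adjacent, and their log2 differences were -0.12 and 0.41, or 0.01 and -0.00069 after quantile normalization.

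The other genes of the pathway were read from 8 lists. Over all genes 17.9% were higher and 9.18% lower, with a median log2 difference of 0.02. Of 14 other genes of glucan synthesis, 3 were higher and 2 lower (median log2 0.01): GSC2, FKS3 and BIG1 (log2 0.44), which is needed for beta-1,6-glucan, against the calnexin gene CNE1 (log2 -0.52) and the glucosidase II gene ROT2 (-0.22), both of which act on glycoproteins in the endoplasmic reticulum. ROT2, the fifth of these, was named after its value was seen. Of 14 other glucan remodelling genes, NCA3 was higher (log2 0.80, a dim signal) and UTR2 lower, with a median of 0.01. The calls of FKS3, BIG1 and NCA3, all below the background level, and that of ROT2 ended after quantile normalization. With the replicate number as a block the counts of the remodelling list were 3 higher and 2 lower, against 23.7% and 15.7% of all genes.

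Of 9 genes that activate or transport Chs3, 3 were lower and 0 higher (median log2 -0.14), against 9.18% lower and a median of 0.02 over all genes. In the brightest bin, which holds 3 of the 9, SKT5 among them, 21.4% of genes were lower and the median was -0.11. In the next bin down, which holds BUD7 and PFA4, 8.59% were lower and the median was -0.01. The 3 lower genes were SKT5, BUD7 and PFA4. SKT5 is the activating subunit of Chs3 (769 ± 26.2 in H2A R78A, 977 ± 67.9 in wild type, log2 -0.34). BUD7 is an exomer cargo adaptor gene (-0.42), and PFA4 is the palmitoyltransferase that lets Chs3 leave the endoplasmic reticulum (-0.39). Each of the 3 kept its limma call under all 17 alternatives. Of 6 genes for the chitin precursor and for chitinases, 3 were lower and 0 higher (median -0.09), and all 3 lay in that brightest bin. GFA1, the first and rate-limiting enzyme of the route to UDP-N-acetylglucosamine, had a log2 difference of -0.32 (limma adjusted p = 0.0254), PCM1 of -0.32 (0.00378) and QRI1 of -0.20 (0.0446). The remaining enzyme gene of that route, GNA1, and the chitinase gene CTS1, named after their values were seen, had 0.02 and 0.07 and did not pass. The calls of GFA1 and QRI1 ended under 7 and 9 of 17 alternatives, and that of PCM1 under none.

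Of 12 spore wall genes, all below the background level, 11 passed as higher and 0 as lower (median log2 0.85). DIT1 and SMK1 are also among the sporulation markers read beside GAS2, so the counts of these lists are not independent. Over all genes 17.9% were higher, and in the dimmest bin, which holds all 12, 37.4% were higher with a median of 0.28. After quantile normalization 7 were higher and the median was 0.39, against 10.4% higher and a median of -0.03 over all genes. The share and median of the dimmest bin were not computed on that scale. DIT2, for the dityrosine layer, had the largest difference (log2 1.17), followed by DIT1 (1.08), SPS100 (0.97) and OSW1 (0.96).

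The cell wall integrity pathway relays wall stress from surface sensors through Rho1, Pkc1 and the kinase Slt2 to transcription. Of its 25 genes 3 were higher and 3 lower (median log2 -0.03), against 17.9% and 9.18% of all genes. With the replicate block the counts were 5 and 5, against 23.7% and 15.7% of all genes. Higher were the phosphatase gene SDP1 (log2 1.20) and the Rho1 regulator genes BAG7 (0.69) and ROM1 (0.52), while SLT2 was lower (807 ± 122 in H2A R78A, 1034 ± 109 in wild type, log2 -0.36, limma adjusted p = 0.0301). SDP1 and BAG7 lay below the background level, and after quantile normalization SDP1 had 0.75 and BAG7 lost its call (0.31, limma adjusted p = 0.0605). The SLT2 call ended under 8 of 17 alternatives. The other lower genes, named after their values were seen, were the sensor gene MID2 (log2 -0.30) and KNR4, annotated as SMI1 (-0.19). Of 9 measured outputs of the pathway 5 were higher and 0 lower (median 0.27), or 5 and 1 with the block, against the same shares of all genes. CWP1, a wall mannoprotein gene, rose 1.67-fold (1027 ± 66.2 in H2A R78A, 618 ± 83.7 in wild type), beside PIR3 (log2 1.21, a dim signal), YPS1 (0.45) and PIR1 (0.41). YPS1 also lay below the background level, and its call ended after quantile normalization (0.19, limma adjusted p = 0.206). The fifth, PST1 (0.27), was named after its value was seen. Of 10 measured genes of daughter cell separation 1 was higher and 0 were lower (median 0.02), again against 17.9% and 9.18% of all genes. The higher gene was DSE1 (log2 0.47, limma adjusted p = 0.0286). The DSE1 call ended after quantile normalization (limma adjusted p = 0.0815) but held with the replicate block added (0.00904).

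**Figure D5:**
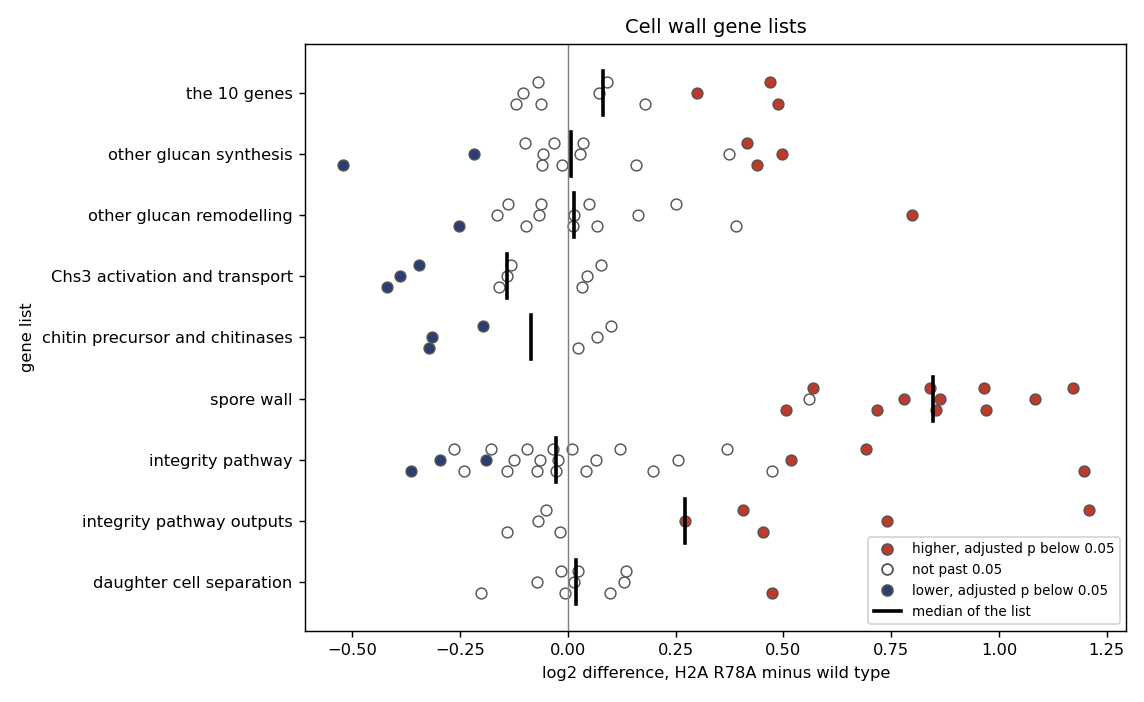
Log2 difference (H2A R78A minus wild type) of every measured gene of the 10 and of 8 further cell wall lists, with red for higher and blue for lower at a limma adjusted p below 0.05, and a black line at each list's median. The spore wall genes lie to the right of 0, and the genes that passed in both chitin lists lie to the left.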

How the data were processed

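Biotinylated cRNA made from total RNA was read on one-colour Affymetrix arrays, per the labels' protocols. The authors deposited probe set signal intensities on a linear scale; the submitters' processing notes name MAS5 and limma without a version. Computed from the file, the trimmed mean (2% off each end) was 500 on all 6 arrays. Neither scanner files nor detection calls were used.

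Of 5900 probe sets, 5498 were paired with 1 gene, 12 symbols were updated, and the probe set with the highest mean was kept, leaving 5449 genes. Log2 was taken with no pseudocount or further normalization. The test was limma's (version 3.58.1, R 4.3.3; lmFit, then eBayes with trend; two-sided), and p-values over all genes were adjusted by Benjamini-Hochberg, with 0.05 as the threshold. The background level was the 25th percentile of mean log2 signals, a rank cut and not a measured detection limit. NCW2 was not analysed here, and 1 other listed gene is not reported here.

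The 10 genes, the gene lists and the alternatives were chosen with earlier results of these data known. Named were the 10 genes, HTA1, HTA2, the neighbours and family pairs, and from each list up to 4 genes past the threshold with the largest differences; others were chosen after their values had been seen. Ratios within families were also chosen then.

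Replicate numbers 1 to 3 occur in both groups. Deviations from the group means correlated across genes with r = 0.206, 0.383 and 0.427 between same-numbered arrays, so the number was also fitted as a block. Between differently numbered arrays r was -0.449 to 0.154. The match of number 1 was not clear. Above the background level, H2A R78A replicate 1 had r = 0.106 with wild-type replicate 1 and 0.194 with wild-type replicate 3. On simulated arrays, 3 against 3 with 5449 genes, the procedure recovered 22.4% of made log2 differences of 0.25, 79.1% of 0.5 and 100% of 1. Differences were made in a small share of genes, all above the background level, with noise independent between arrays. The rates therefore do not cover dim genes such as GAS4, replicate-number effects or the larger share of genes called in the data. Figures were drawn with matplotlib 3.10.9.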

Additional observations from a re-analysis of the deposited data

How the results depend on the processing

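GAS2 and GAS5 kept their calls under all 17 alternatives run for each, and FKS1, GAS1, GAS3, GAS4, CHS2, CHS3 and CRH1 passed under none. The alternatives are not independent of each other. Neither the probe set rule nor the raising of low values could change a log2 difference among the 10. The number of higher genes among the 10 was 2 or 3 throughout, with 0 lower. Over all genes, 976 were higher and 500 lower; higher genes numbered 569 after quantile normalization, 631 with cyclic loess, 418 without genes below the background level, 574 with low values raised to the 10th percentile and 584 at an adjusted p below 0.01. Lower genes numbered 876 after median centring (with 811 higher), 532 after quantile normalization, 312 without a variance trend, 920 with array weights, 138 at 0.01, 791 at 0.10, and 194 to 601 when an array was left out. The replicate number as a block gave 1292 higher and 857 lower, or 844 lower together with quantile normalization. On the deposited scale the block changed no call among the 10 genes. Added to quantile normalization, it brought back the call of CHS1 (limma adjusted p = 0.0195, against 0.0755 without the block). Higher calls made up 66.1% of all calls on the deposited scale, 51.7% after quantile normalization and 48.1% after median centring.

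Counts of the lists changed by more than 1.5 times as follows, over all alternatives. Glucan synthesis had 1 to 4 higher and 1 to 2 lower, glucan remodelling 0 to 3 in each direction, and precursor and chitinases 0 to 1 higher and 1 to 3 lower. Spore wall genes had 10 to 12 higher when an array was left out, 7 with quantile normalization or cyclic loess, 4 with low values raised and 0 when genes below the background level were left out, which removes all 12. The integrity pathway had 1 to 5 higher and 0 to 6 lower, its outputs 1 to 5 higher and 0 to 1 lower, and separation 0 to 2 higher and 0 to 1 lower. Chs3 activation and transport, with 3 to 4 lower, moved by less. FKS3 changed sign after quantile normalization, with or without the block (-0.00069), and the cause was not tested. HTA1 passed as higher under 3 of 17 alternatives. They were quantile normalization (log2 0.19, limma adjusted p = 0.00869), the same with the block (0.00259) and cyclic loess (0.20, 0.0103). HTA2 passed as lower under 2, array weights (log2 -0.18, limma adjusted p = 0.0168) and without H2A R78A replicate 2 (-0.19, 0.0354). Of the 19 family pairs, 10 did not overlap after quantile normalization or cyclic loess, alternatives chosen after the data had been seen. The set of pairs also changed under both scalings. GAS3 over GAS1 and FKS3 over FKS1 came to overlap, and GSC2 over FKS3 no longer did. The number of arrays limits the precision, and GAS4 and the spore wall genes lie below the background level.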
